A study of Homo sapiens with 8 samples.

Results

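The 47 genes described here encode the machinery that copies DNA and the regulators that let a cell leave G1 and enter S phase. They were chosen by name, and their rows were taken from the count and FPKM tables, which hold 25369 genes. All 47 were found, and all 47 were among the 14570 genes with enough counts to be tested. RNA was measured in LX-2, an immortalized human hepatic stellate cell line labelled wild type, grown for 2 or 4 days on polyacrylamide hydrogel, which was either soft (2 kPa) or stiff (40 kPa). Each of the 4 conditions, soft or stiff matrix (or gel) at day 2 or day 4, had 2 libraries, which makes 8 in all. The study compared the matrices to ask how these cells respond to a matrix as stiff as that of a fibrotic liver. All libraries came from a single cell line. The study describes the libraries of a condition as independent experiments, and the p-values measure the spread between them.

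A cell prepares its origins of replication in G1. The origin recognition complex (ORC), CDC6 and CDT1 load the MCM2 to MCM7 helicase onto DNA, and CDC45 and the GINS complex then turn it into an active helicase as S phase starts. Primase and the DNA polymerases alpha, delta and epsilon make the new strands, held to DNA by the PCNA ring, which the RFC complex loads, while RPA covers single-stranded DNA. Cyclin D with CDK4 and cyclin E with CDK2 inactivate the retinoblastoma protein, which frees E2F factors to transcribe many of these same genes. Transcript levels in bulk RNA combine the share of cells in S phase with the amount per cell, and these cannot be told apart here.

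The libraries held between 19955975 and 27263935 counts, of which the 47 genes took 0.721% to 0.778%. The least counted of the 47 in any library was POLE2, with 217 counts, which limits its precision most. In 21 of the 47 the annotation places exonic sequence of another gene on the opposite strand, and without strand their reads cannot be told apart. Another source of uncertain reads is pseudogenes, which 11 of the 47 have. COL1A1 (8750 to 28992 counts) and VIM (54645 to 110441 counts) marked the cells as mesenchymal, but the stellate cell markers DES, the desmin gene, and LRAT, the retinyl ester synthase gene, reached no more than 2 counts in any library. None of 5 hepatocyte markers passed the filter. The summed level of 4 cholangiocyte markers was 32.2 to 37 CPM at day 2 and 50.7 to 71.2 CPM at day 4. That of 5 macrophage or leukocyte markers, with CD163 at 0, was 91.6 to 109.8 CPM and 107 to 127 CPM. Most of it was CD68, with 2072 to 2491 counts in a library, against 48 to 205 for CD14 and 12 to 64 for PTPRC. Most of the cholangiocyte sum was SOX9 (504 to 1180 counts) and KRT7 (191 to 465 counts), while KRT19 reached 15 counts and EPCAM 6. The 5 endothelial markers summed to 2.12 to 2.71 CPM and 2.71 to 5.11 CPM. All libraries came from LX-2 alone, and the source of the reads of these markers was not tested.

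The 2 libraries from the stiff matrix at day 4 stood apart from each other. The squared differences of their counts were 112 times those that counting error alone gives (chi-square divided by its degrees of freedom). For the replicates of the other conditions this ratio was 3.45 to 19.2. The median size of the log2 ratio between them was 0.33 over the 47 genes. The ratio fell with gene length (Spearman's rho -0.65 across the 47 genes and -0.72 across 9459 genes of at least 10 CPM, all from the same pair of libraries). Short transcripts such as those of RPA3, GINS2 and PCNA were higher in replicate 2, by 1.21, 0.90 and 0.84 on the log2 scale, while the long transcripts of POLA1 and POLE were lower, by 0.81 and 0.55. Calls among the 47 genes that changed without one of these libraries are therefore given with the results. Such a fit keeps a single library of that condition and takes its spread from the other conditions.

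Levels per transcript length were compared on the FPKM scale. CCND1, which encodes cyclin D1, had the highest mean, 309 FPKM (range over the 8 libraries 248 to 385). Next came TK1, the thymidine kinase gene, with 254 FPKM (range over the 8 libraries 214 to 357), and PCNA with 173 FPKM (range over the 8 libraries 117 to 286). The lowest was E2F2 with 2.92 FPKM (range over the 8 libraries 2.52 to 3.87), below POLE2 with 6.19 FPKM (range over the 8 libraries 4.68 to 8.59). The ranges of CCND1 and TK1 shared values, as did those of TK1 and PCNA. E2F2 lay below POLE2 in every library.

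**Figure D1:**
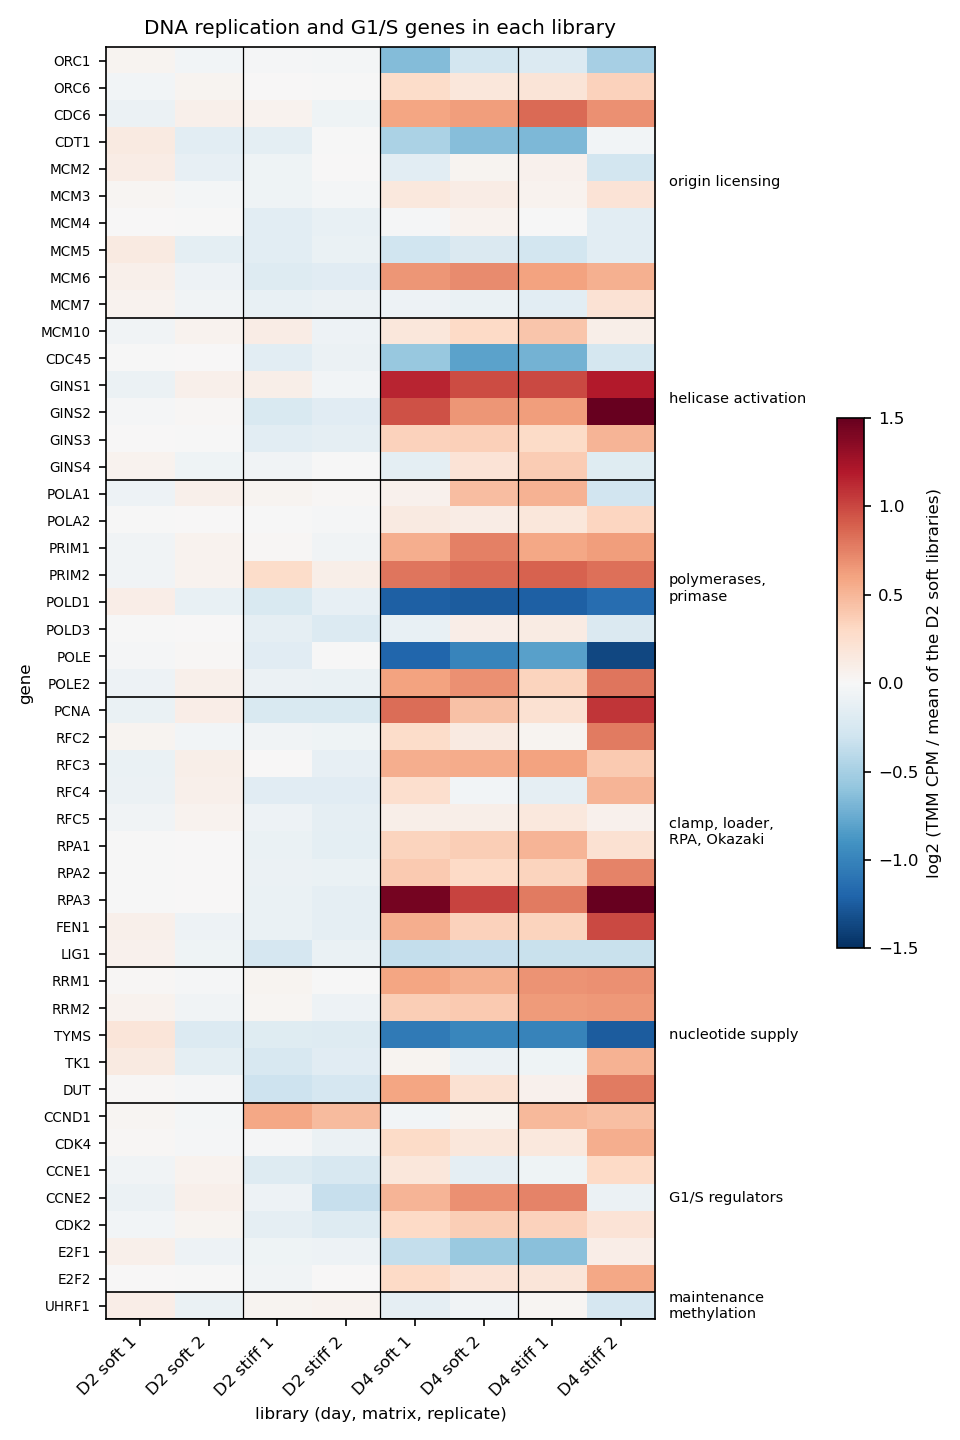
Heat map of the 47 genes (rows, grouped by role) in the 8 libraries (columns, by day, matrix and replicate). Colour gives the log2 ratio of TMM-normalized CPM to the mean of the 2 libraries from the soft matrix at day 2. The day 4 columns hold both red rows, such as RPA3 and GINS1, and blue rows, such as POLD1, POLE and TYMS, while CCND1 is red only in the columns of the stiff matrix.

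The first question was whether the stiff matrix changed these genes. CCND1 alone separated the matrices, without overlap of libraries, at both days with the stiff matrix higher, and MCM6 alone with it lower. Of all tested genes, 25.7% at day 2 and 11.7% at day 4 separated with the stiff matrix higher. With it lower, 22.4% and 14% did, and the share that separated at both days is not given here. No other gene of the list differed by more than 0.33 on the log2 scale in either comparison. The test was edgeR's quasi-likelihood F test, with Benjamini-Hochberg adjusted p-values over all tested genes. At day 2 it called 0 of 47 higher on the stiff matrix and 0 lower (0% of all tested genes in each direction). At day 4 it also called 0 and 0 (0.0343% higher and 0.213% lower). At an unadjusted p under 0.05 only CCND1 differed, at each day, where 2.82% of all tested genes did at day 2 and 6.93% at day 4. DESeq2 called 1 gene higher at each day, again CCND1 (0.0411% of the genes it tested were called higher at day 2 and 0.317% at day 4).

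Cyclin D1 activates CDK4 and CDK6 and accumulates in response to mitogens and adhesion. The level of CCND1 was 1127 and 1077 CPM (soft) and 1653 and 1535 CPM (stiff) at day 2, and 1070.4 and 1137 CPM (soft) and 1549.5 and 1512 CPM (stiff) at day 4. Both libraries from the stiff matrix thus exceeded both from the soft matrix at each day, and the replicates differed by little. The log2 fold change of stiff against soft was 0.53 ± 0.14 (standard error) at day 2, with an unadjusted p of 0.00445 and an adjusted p of 1 in edgeR. At day 4 it was 0.47 ± 0.14, with an unadjusted p of 0.00843 and an edgeR adjusted p of 0.393. Averaged over both days, in a contrast chosen after seeing the data, CCND1 stood at 0.50 ± 0.10 with an edgeR adjusted p of 0.102. In that contrast 0 of the 47 genes were called higher and 0 lower (0.0755% and 0.35% of all tested genes), and 1 had an unadjusted p under 0.05 (7.7%). The size of the CCND1 difference moved little with the method, but the call did. In DESeq2 the adjusted p was 0.0172 at day 2 and 0.0196 at day 4. Fitted on the 4 libraries of each day alone, the edgeR adjusted p was 3.66e-05 at day 2 and 0.9999 at day 4. In edgeR it was 0.0182 and 0.0108 without replicate 1 of the stiff matrix at day 4, and 0.0118 and 0.0261 without replicate 2. CCND1 lies on chromosome 11 (GRCh37, from 69455924 to 69469242) and shares exonic sequence with LTO1 on the opposite strand, and the counting was not stated to use strand.

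The other regulators of G1 exit gave a different picture. CDK4, the kinase partner of cyclin D1, stood at 254 and 249.8 CPM (soft) and 249.5 and 237 CPM (stiff) at day 2, and 307 and 283 CPM (soft) and 280.4 and 368 CPM (stiff) at day 4. CDK2 had 100.4 and 106 CPM (soft) and 94.6 and 90.7 CPM (stiff) at day 2, and 128 and 134 CPM (soft) and 132 and 119 CPM (stiff) at day 4. At day 2 the stiff matrix was a little lower in both kinase genes without overlap, and at day 4 the matrices overlapped in both. The log2 fold changes of stiff against soft were -0.05 and 0.13 for CDK4 and -0.16 and -0.06 for CDK2 at day 2 and day 4, with no adjusted p from edgeR below 0.894. CCNE2, an E-type cyclin gene, had 36.5 and 20.6 CPM in the libraries of the stiff matrix at day 4, which enclosed its values on the soft matrix (31.03 and 34.9 CPM). E2F1, the first described E2F activator, behaved alike, with 139.7 and 232 CPM on the stiff and 169 and 146 CPM on the soft matrix at day 4.

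**Figure D2:**
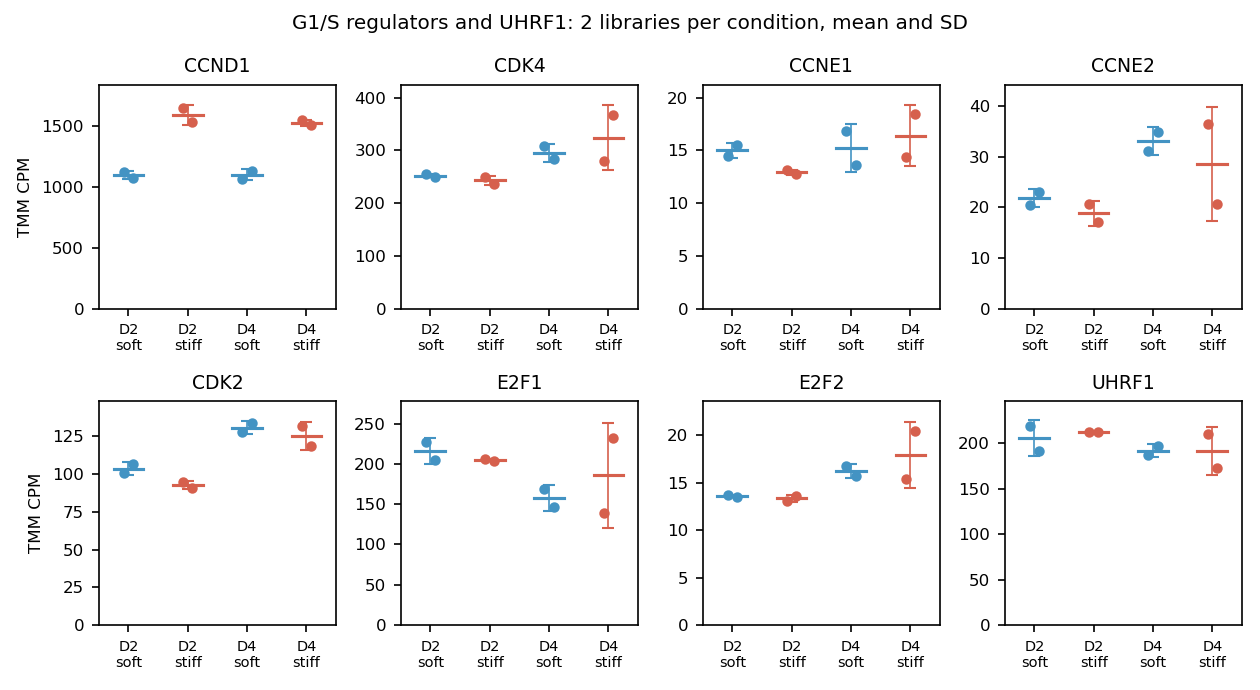
Level (TMM-normalized CPM, axes from 0) of the 7 G1/S regulators and of UHRF1 in the 4 conditions; each point is a library, horizontal lines are means and bars are the SD of 2 libraries, blue for the soft and red for the stiff matrix. CCND1 has both stiff libraries above both soft libraries at each day, while the stiff libraries at day 4 lie far apart for CCNE2 and E2F1.

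Among the remaining genes, small shifts at day 2 ran mostly downward on the stiff matrix. The median log2 fold change of the 47 genes was -0.09, against 0.01 for all tested genes, and 39 of the 47 were negative. Both stiff libraries lay below both soft libraries in 24 of 47 genes (22.4% of all tested genes did) and above them in 2 (25.7%), CCND1 and PRIM2. DUT, the dUTPase gene, was lowest relative to the soft matrix, with 165 and 161 CPM on the soft and 131 and 136 CPM on the stiff matrix, and PCNA had 186 and 213 CPM against 169.7 and 171 CPM. Neither difference passed the test (-0.28 ± 0.23 and -0.23 ± 0.27 on the log2 scale, edgeR adjusted p = 1 for each). Fitted on the 4 day 2 libraries alone, however, edgeR called DUT lower and CCND1 higher (2.47% and 2.2% of all genes in that fit).

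At day 4 this pattern was not seen. The median log2 fold change was 0.05 (0.02 for all tested genes), 35 of 47 were positive, and the libraries did not overlap in 6 genes with the stiff matrix higher (11.7% of all tested genes) and 1 with it lower (14%). The 6 were CCND1, CDC6, POLA2, LIG1, RRM1 and RRM2, and the 1 was MCM6. RRM2, which encodes the small subunit of ribonucleotide reductase, had 267 and 271 CPM on the soft and 322 and 324 CPM on the stiff matrix, a log2 fold change of 0.26 ± 0.12 (edgeR adjusted p = 0.757). These day 4 counts rested on the libraries that stood apart: without replicate 1 of the stiff matrix edgeR called 12 of the 47 higher and 2 lower (16.5% and 14.6% of all genes in that fit), and without replicate 2 it called 1 higher and 0 lower (1.82% and 1.81%). The 12 were CCND1, CDT1, CDC45, GINS2, PCNA, RFC2, RFC4, RPA2, RPA3, FEN1, TK1 and E2F1, and the 2 were POLA1 and CCNE2. Apart from CCND1 all of these had the opposite sign without replicate 2, as RPA3 with 0.75 without replicate 1 and -0.46 without replicate 2.

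The next question was what 2 further days of culture did. Genes of every replication stage rose on both matrices, with RPA3 and GINS1 foremost, while the genes of the catalytic subunits of polymerases delta and epsilon, POLD1 and POLE, and the thymidylate synthase gene TYMS fell by about the same factor on both. With soft gel, edgeR called 9 of 47 higher at day 4 and 4 lower (14.1% and 13.3% of all tested genes). With stiff gel it called 18 higher and 3 lower (14% and 13.7%). Both matrices called 9 genes higher (10.3% of all tested genes) and 3 lower (10.4%). Another 9 were called on the stiff matrix only and 1 on the soft matrix only, and 25 were called on neither. The libraries of the 2 days did not overlap in 27 genes with day 4 higher and 10 with it lower for the soft matrix (38.5% and 36.7% of all tested genes), and in 28 and 8 for the stiff matrix (31.6% and 31.1%). The median log2 fold change was 0.23 on the soft and 0.39 on the stiff matrix, against 0.02 and 0.03 for all tested genes. The comparisons on the 2 matrices share no library, and 43 of the 47 genes had the same sign in both. The share of all tested genes with the same sign is not given here, so this count does not set the 47 apart.

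These counts depended on single libraries. For the stiff matrix, 27 were called up and 4 down without its replicate 1 at day 4 (26.4% and 25.7% of all genes in that fit), and 20 and 6 without its replicate 2 (21.1% and 22.6%). Leaving out its replicate 1 at day 2 gave 1 and 1 (2.18% and 3.57%), and its replicate 2 at day 2 gave 0 and 1 (1.1% and 2.04%). Leaving out any library of the soft matrix gave 10 or 11 up and 3 down (up 8.06% to 9.7% and down 8.36% to 10.7%). For the soft matrix, leaving out its replicate 1 at day 2 gave 0 up and 1 down (0.728% and 1.59%), and leaving out any of its other libraries gave 2 up and 1 to 3 down (up 3.19% to 3.88% and down 3.55% to 4.64%). Leaving out either library from the stiff matrix at day 4 gave 19 up and 9 down (up 25.4% to 26.1% and down 26.8% to 27.3%). The share of all genes called thus moved with the library left out as well.

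On the stiff matrix 10 more genes passed over time without replicate 1 at day 4, with log2 fold changes of 0.32 to 0.84 for ORC6, MCM7, POLA2, RFC2, RFC4, TK1, CDK4, CCNE1 and E2F2 and of -0.47 for ORC1. Without replicate 2 these 10 did not pass. Another 7 passed only without replicate 2, with 0.39 to 0.95 for MCM10, GINS4, POLA1 and CCNE2 and -0.61 to -0.56 for CDT1, CDC45 and E2F1. The calls of POLE2 and DUT were lost without replicate 2 (0.41 and 0.35, edgeR adjusted p = 0.0606 and 0.0565), and the other 19 genes were called whichever of the pair was left out. Each of these fits kept a single library of the stiff matrix at day 4, whose spread was taken from the other conditions. Fitted on the 4 libraries of the stiff matrix alone, no gene of the list passed (0% of all genes in each direction).

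Promoter windows from RefSeq (GRCh38.p14), of 250 bases before and 50 after the transcript start, covered 38 of the 47 genes. They were searched on either strand for letters of the E2F site (TTTGGCGC, TTTGCCGC, TTTCGCGC or TTTCCCGC, whose matches may overlap). A match occurred in 21 of the 38 (55.3%), against 1090 of 27305 genes in all (3.99%). Of the genes that rose on both matrices, 5 of the 8 with a window held a match, as did 2 of the 3 that fell and 14 of the 27 others with a window. Such a match only describes the sequence. The 200 bases upstream of the start are shown for MCM6 (chr2:135876444-135876643, minus strand) and RFC3 (chr13:33817949-33818148, plus strand), which rose, and for POLE (chr12:132687343-132687542, minus strand) and TYMS (chr18:657453-657652, plus strand), which fell. They are shown because these genes were called on both matrices and have a match inside that stretch. Each is written 5′ to 3′ on the strand of its gene, and capitals mark the match.
MCM6: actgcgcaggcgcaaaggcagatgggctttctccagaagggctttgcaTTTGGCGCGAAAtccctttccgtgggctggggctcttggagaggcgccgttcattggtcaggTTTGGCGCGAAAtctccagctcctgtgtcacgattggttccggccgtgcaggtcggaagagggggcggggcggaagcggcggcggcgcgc
RFC3: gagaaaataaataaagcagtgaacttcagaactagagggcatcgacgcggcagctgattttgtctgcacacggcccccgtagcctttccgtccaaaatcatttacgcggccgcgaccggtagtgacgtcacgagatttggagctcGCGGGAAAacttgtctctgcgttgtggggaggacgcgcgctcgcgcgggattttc
POLE: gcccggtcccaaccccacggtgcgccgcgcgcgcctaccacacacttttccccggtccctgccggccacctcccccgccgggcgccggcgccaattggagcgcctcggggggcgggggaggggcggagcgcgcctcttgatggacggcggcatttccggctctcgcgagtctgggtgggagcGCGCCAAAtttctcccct
TYMS: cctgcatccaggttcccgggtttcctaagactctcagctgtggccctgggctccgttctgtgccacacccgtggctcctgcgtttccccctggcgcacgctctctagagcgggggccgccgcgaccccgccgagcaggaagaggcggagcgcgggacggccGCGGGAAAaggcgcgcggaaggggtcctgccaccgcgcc
In MCM6 a pair of overlapping matches occurs at each of 2 places, beginning 152 and 90 bases before the start, whereas the single matches begin 55 bases before the start in RFC3, 18 in POLE and 39 in TYMS. Genes that rose and genes that fell thus both carried these letters close to the start.

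Origin licensing held 2 called genes. Of its 10 genes, CDC6 and MCM6 rose on both matrices, and the other 8 passed the test on neither. That is 20% of the group, against 10.3% of all tested genes called higher on both. MCM6, a subunit of the helicase ring encoded on chromosome 2 (GRCh37, 136597196 to 136634013), had 89.4 and 80.9 CPM at day 2 and 135 and 139 CPM at day 4 on the soft matrix. For MCM6 on the stiff matrix, 74.7 and 75.8 CPM became 129.5 and 123 CPM. All day 4 libraries exceeded all day 2 libraries, with log2 fold changes of 0.69 ± 0.12 on the soft matrix (edgeR adjusted p = 0.00728) and 0.74 ± 0.12 on the stiff matrix (adjusted p = 0.00586). Its partners in the ring were close to level: the log2 fold changes of MCM2, MCM3, MCM4, MCM5 and MCM7 lay between -0.26 and 0.13 on the soft and between -0.08 and 0.18 on the stiff matrix. MCM7, the member of this group with the highest FPKM, had 535 and 500.01 CPM at day 2 and 489 and 481 CPM at day 4 on the soft matrix. Cells on the stiff matrix had 478 and 487 CPM of MCM7 at day 2 and 465 and 601 CPM at day 4. The days thus overlapped on the stiff matrix only.

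CDC6, the loader that recruits the helicase together with CDT1, rose by 0.61 ± 0.13 and 0.78 ± 0.13 on the log2 scale (soft and stiff matrix, edgeR adjusted p = 0.0146 and 0.00655). CDT1 itself and ORC1, the ATP-binding subunit of the origin recognition complex, had negative values that did not pass (-0.55 and -0.25 for CDT1, -0.45 and -0.32 for ORC1, smallest edgeR adjusted p = 0.0841). ORC6 had 0.23 and 0.27, also without passing.

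Among the 6 genes of helicase activation, GINS1 had the most reproducible rise. It encodes a subunit of the GINS complex and lies on chromosome 20 (GRCh37, 25371644 to 25433336), and its level was 38.2 and 42.7 CPM at day 2 and 88.9 and 79.6 CPM at day 4 on the soft matrix. Stiff-matrix values of GINS1 were 43.1 and 39.5 CPM at day 2 and 80.6 and 91.97 CPM at day 4. The rise was 2.08-fold on the soft and 2.09-fold on the stiff matrix, with log2 fold changes of 1.06 ± 0.14 and 1.06 ± 0.14 (edgeR adjusted p = 0.00322 and 0.00317). GINS2 had 29.96 and 30.9 CPM at day 2 and 59.1 and 48.2 CPM at day 4 on the soft matrix. For GINS2 on the stiff matrix, 26.03 and 27.02 CPM became 47.1 and 87.8 CPM. Every day 4 library was higher, but the spread was wide, and the edgeR test called the stiff matrix (1.35 ± 0.27, adjusted p = 0.0112; 0.82 without replicate 2 at day 4) and not the soft (0.82 ± 0.27, adjusted p = 0.0554).

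GINS3 was likewise called on the stiff matrix alone (0.54, against 0.36 with soft gel, edgeR adjusted p = 0.0221 and 0.0816). GINS4 was not called on either matrix and changed least in this group, with 45.1 and 41.5 CPM at day 2 and 39.01 and 49.9 CPM at day 4 on the soft matrix. Cells on the stiff matrix had 41.8 and 43.01 CPM of GINS4 at day 2 and 56.2 and 38.3 CPM at day 4. The subunits of this complex therefore had unequal values in the same libraries. CDC45, which joins MCM2 to MCM7 and GINS in the active helicase, fell on the soft matrix, from 65.9 and 66.4 CPM to 44.5 and 37.8 CPM (-0.69 ± 0.17, edgeR adjusted p = 0.0242), and had -0.35 with an adjusted p of 0.169 on the stiff matrix. MCM10 had 0.24 and 0.24 and passed on neither.

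The polymerase and primase genes moved in opposite directions. POLD1, the catalytic subunit of polymerase delta, which makes most of the lagging strand, lies on chromosome 19 (GRCh37, 50887461 to 50921275), and had 177 and 153 CPM at day 2 and 70.7 and 69.4 CPM at day 4 on the soft matrix. Stiff-matrix values of POLD1 were 141 and 152 CPM at day 2 and 70.3 and 74.4 CPM at day 4. Both day 4 libraries lay below both day 2 libraries on each matrix, with log2 fold changes of -1.23 ± 0.13 and -1.01 ± 0.13 (edgeR adjusted p = 0.00172 and 0.00288), and the call held whichever library was left out. POLE, the catalytic subunit of polymerase epsilon, which makes most of the leading strand, lies on chromosome 12 (GRCh37, 133200339 to 133263962), and had 182 and 187 CPM at day 2 and 80.6 and 92.6 CPM at day 4 on the soft matrix. For POLE on the stiff matrix, 163 and 183 CPM became 105 and 71.8 CPM. Its log2 fold changes were -1.09 ± 0.19 and -0.97 ± 0.19 (edgeR adjusted p = 0.00719 and 0.0107).

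The accessory subunit gene POLE2 rose while POLE fell, by 0.64 ± 0.19 and 0.67 ± 0.19 (edgeR adjusted p = 0.0368 and 0.0332; 0.41 on the stiff matrix without replicate 2 at day 4, adjusted p = 0.0606). POLD3, an accessory subunit of polymerase delta, was near 0 at 0.00 and 0.13, with 98.2 and 99.2 CPM at day 2 and 91.4 and 105 CPM at day 4 on the soft matrix. Cells on the stiff matrix had 90.01 and 85.3 CPM of POLD3 at day 2 and 107 and 85.1 CPM at day 4. Both primase genes rose. PRIM2, the large primase subunit, had 27.8 and 30.01 CPM at day 2 and 50.4 and 52.2 CPM at day 4 on the soft matrix. Stiff-matrix values of PRIM2 were 35.1 and 30.8 CPM at day 2 and 53.6 and 51.1 CPM at day 4. The days did not overlap, with log2 fold changes of 0.83 ± 0.13 and 0.67 ± 0.13 (edgeR adjusted p = 0.0053 and 0.0107). PRIM1, the catalytic primase subunit, rose by 0.65 ± 0.14 and 0.62 ± 0.14 (edgeR adjusted p = 0.0133 and 0.0158). The polymerase alpha genes that work with them passed on neither matrix: POLA2 had 0.13 and 0.26, and POLA1 had 0.27 and 0.15. POLA2 was the gene of this group with the highest FPKM and was tightly measured, with 90.3 and 91.2 CPM at day 2 and 100.04 and 98.3 CPM at day 4 on the soft matrix. For POLA2 on the stiff matrix, 90.4 and 90.01 CPM became 102 and 114 CPM.

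In the group of the clamp, its loader, RPA and the enzymes that join Okazaki fragments, 9 of 10 genes were positive on both matrices. PCNA encodes the sliding clamp and had 186 and 213 CPM at day 2 and 356 and 269.7 CPM at day 4 on the soft matrix. Cells on the stiff matrix had 169.7 and 171 CPM of PCNA at day 2 and 233 and 418 CPM at day 4. All day 4 libraries exceeded the day 2 libraries, yet the replicates were far apart, and the change passed on the stiff matrix (0.94 ± 0.27, edgeR adjusted p = 0.0364; 0.45 without replicate 2 at day 4) and not on the soft (0.65 ± 0.27, adjusted p = 0.107). No limma fit on FPKM called it. RPA3, the smallest subunit of RPA, is encoded on chromosome 7 (GRCh37, 7676149 to 7758238) and had the largest rise of all 47 genes on both matrices, with 27.8 and 28.1 CPM at day 2 and 75.9 and 56.6 CPM at day 4 on the soft matrix. Stiff-matrix values of RPA3 were 26.1 and 25.4 CPM at day 2 and 47.8 and 111 CPM at day 4. Its log2 fold changes were 1.25 ± 0.35 and 1.62 ± 0.35 (edgeR adjusted p = 0.0333 and 0.0144), the latter of which was 0.89 without replicate 2 at day 4 and 2.11 without replicate 1. Exons of RPA3 overlap those of UMAD1 on the opposite strand.

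RPA1 and RPA2, the larger RPA subunits, were called on the stiff matrix (0.50 and 0.65, edgeR adjusted p = 0.0319 and 0.0207) and had 0.35 and 0.35 on the soft matrix. Without replicate 2 at day 4 RPA2 had 0.42 on the stiff matrix. Of the clamp loader genes RFC3 alone rose on both, by 0.55 ± 0.14 and 0.56 ± 0.14 (edgeR adjusted p = 0.0235 and 0.0225), whereas RFC2, RFC4 and RFC5 passed on neither. RFC5 changed least, with 80.2 and 86.7 CPM at day 2 and 88.4 and 88.4 CPM at day 4 on the soft matrix. For RFC5 on the stiff matrix, 79.3 and 75.8 CPM became 93.2 and 87.2 CPM. FEN1, the flap nuclease that trims Okazaki fragments, was called on the stiff matrix (0.82 ± 0.21, edgeR adjusted p = 0.0269, and 0.44 without replicate 2 at day 4) and had 0.45 on the soft. LIG1, the ligase that seals them, was the sole gene of this group with negative values, -0.35 and -0.16, and did not pass.

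Nucleotide supply also divided. TYMS, on chromosome 18 (GRCh37, 657653 to 673578), makes the thymidine nucleotide from dUMP and had 80.2 and 61.1 CPM at day 2 and 33.97 and 35.8 CPM at day 4 on the soft matrix. Cells on the stiff matrix had 62.1 and 61.8 CPM of TYMS at day 2 and 35.2 and 29.8 CPM at day 4. Both day 4 libraries lay below both day 2 libraries on each matrix, with log2 fold changes of -1.02 ± 0.17 and -0.93 ± 0.17 (edgeR adjusted p = 0.00564 and 0.00795). Its exons overlap ENOSF1 and TYMSOS on the opposite strand. RRM1, the large subunit of ribonucleotide reductase, rose by 0.56 ± 0.12 and 0.66 ± 0.12 (edgeR adjusted p = 0.0121 and 0.0072). RRM2 was called on the stiff matrix (0.67, edgeR adjusted p = 0.00818) and just missed on the soft (0.38, 0.0524).

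DUT, which removes dUTP and yields the substrate of TYMS, was called on the stiff matrix alone (0.75 and 0.43 on stiff and soft, edgeR adjusted p = 0.0464 and 0.203), but among the other settings tried with all libraries DESeq2 alone called it, and it had 0.35 without replicate 2 at day 4 (adjusted p = 0.0565). TK1, which salvages thymidine, had 440.1 and 365 CPM at day 2 and 415 and 379 CPM at day 4 on the soft matrix. Stiff-matrix values of TK1 were 341 and 359 CPM at day 2 and 385 and 578 CPM at day 4. Its days overlapped on the soft but not on the stiff matrix, and neither change passed (-0.02 and 0.46, edgeR adjusted p = 0.950 and 0.131). On the stiff matrix it had 0.72 without replicate 1 at day 4 and 0.13 without replicate 2.

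Of the 7 G1/S regulators only CDK2 was called, on the stiff matrix (0.44 ± 0.12, edgeR adjusted p = 0.0358), and its value on the soft matrix was 0.34 ± 0.12 (adjusted p = 0.0781). The share called higher on the stiff matrix was thus 14.3% of the group, near the 14% of all tested genes. CCND1 was level in time, at 0.00 ± 0.13 and -0.06 ± 0.13. CCNE2 had the largest mean change of the group, with 20.5 and 23.03 CPM at day 2 and 31.03 and 34.9 CPM at day 4 on the soft matrix. For CCNE2 on the stiff matrix, 20.6 and 17.1 CPM became 36.5 and 20.6 CPM. Neither change passed (0.60 and 0.60, smallest edgeR adjusted p = 0.119). On the stiff matrix CCNE2 had 0.13 without replicate 1 at day 4 and 0.95 without replicate 2. With offsets for length and GC content it had -0.09 on the soft and -0.01 on the stiff matrix. CCNE1, CDK4, E2F1 and E2F2 had log2 fold changes of 0.02, 0.23, -0.45 and 0.25 on the soft matrix. With stiff gel these were 0.34, 0.41, -0.14 and 0.42, and none passed. UHRF1, which guides maintenance methylation to newly copied DNA, had 219.5 and 192 CPM at day 2 and 187 and 197 CPM at day 4 on the soft matrix. Stiff-matrix values of UHRF1 were 212 and 212 CPM at day 2 and 210.3 and 173 CPM at day 4. Its day 4 libraries lay below the day 2 libraries on the stiff matrix only, without passing on either (-0.10 and -0.15).

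Whether time acted differently on the matrices was tested by the interaction term. The change over time was more positive on the stiff matrix in 41 of 47 genes, with a median difference of 0.14 on the log2 scale (0.01 for all tested genes), most for GINS2 (0.53 ± 0.38) and TK1 (0.48 ± 0.29). None passed edgeR's test (0 higher and 0 lower, smallest adjusted p = 1; 0% of all tested genes in each direction), and 0 genes of the 47 had an unadjusted p under 0.05, and DESeq2 also called 0. The values of both genes moved with the library left out. Over time on the stiff matrix GINS2 had 1.73 without replicate 1 at day 4 and 0.82 without replicate 2. For TK1 these were 0.72 and 0.13. On the soft matrix, with all libraries, GINS2 had 0.82 and TK1 had -0.02. The 9 genes called on the stiff matrix only are therefore not shown to differ between the matrices.

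Changes over time moved with base composition. Across the 47 genes, Spearman's rho between the log2 fold change and the GC content of the transcript was -0.67 on the soft and -0.52 on the stiff matrix, and across 13158 genes it was -0.58 and -0.45; all points of a comparison share its 4 libraries. With gene length, rho of the change over time across the 47 genes was -0.27 on the soft and -0.40 on the stiff matrix. The differences of stiff against soft had rho 0.37 with length and -0.19 with GC content at day 2, and -0.30 and 0.43 at day 4. The 9 genes that rose on both matrices had a median GC content of 43.2% (35.2% to 45.9%), and the 3 that fell 55.6% (48.9% to 64.8%). With offsets for length and GC content, an alternative chosen after seeing the data, edgeR called 11 of 47 higher and 6 lower with soft gel (15.6% and 13.1% of all genes in that fit) and 19 and 4 with stiff (18.5% and 13.4%). Of the 12 genes called on both matrices, 7 were called again on both in the same direction (CDC6, MCM6, GINS1, RPA3, POLD1, POLE and TYMS). PRIM2 was not, at 0.16 and 0.09 (edgeR adjusted p = 0.191 and 0.456), nor were PRIM1, POLE2, RFC3 and RRM1. With the offsets 15 genes were called on both matrices, 11 higher and 4 lower. The share of all genes called on both in that fit is not given here. CDC45, GINS2, POLA2, RPA1, FEN1, TK1, CDK4 and E2F2 were called on both only with the offsets. Among these, TK1 rose by 0.52 and 0.77 (edgeR adjusted p = 0.0043 and 0.0010).

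**Figure D3:**
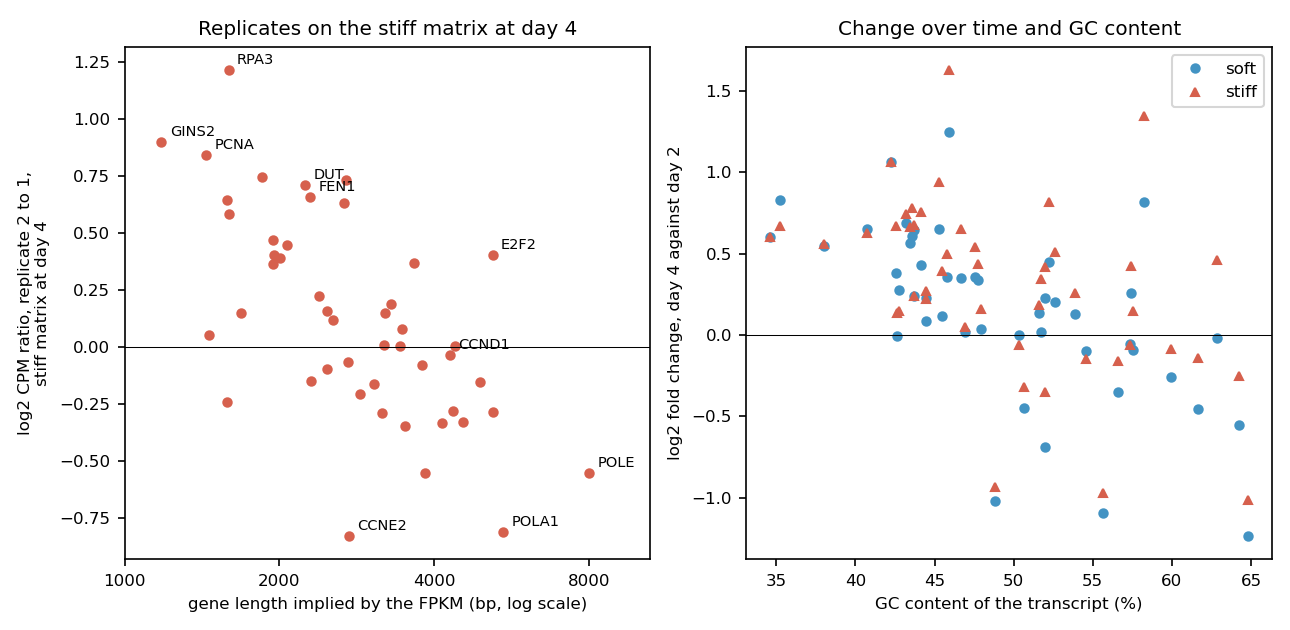
Left, log2 ratio of CPM between replicates 2 and 1 of the stiff matrix at day 4 against the gene length implied by the FPKM (bp, log axis); right, log2 fold change of day 4 against day 2 on the soft (circles) and the stiff matrix (triangles) against transcript GC content (%). Each point is 1 of the 47 genes; the ratio falls with length (rho -0.65), and the change over time falls with GC content (rho -0.67 and -0.52).

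Genes of the same pathway outside the list were read in the same fits, in which 14.1% of all tested genes rose and 13.3% fell by day 4 with soft gel, and 14% and 13.7% with stiff gel. Of 36 further replication genes, 6 rose and 2 fell by day 4 with soft gel, and 5 and 2 did with stiff gel, a share of higher genes (16.7% and 13.9%) near that of all tested genes. The helicase gene RECQL4 (-1.23 and -0.86) and the maintenance methyltransferase gene DNMT1 (-0.74 and -0.85) fell on both, and TIPIN, of the fork protection complex, rose (0.74 and 0.87). Of 17 further G1/S regulators, 4 rose and 0 fell with soft gel, and 5 and 1 did with stiff gel. CCND2, which encodes cyclin D2, rose on both matrices (1.78 ± 0.26 and 1.78 ± 0.25, edgeR adjusted p = 0.00387 and 0.00376), from 1.06 and 1.12 CPM to 4.34 and 3.16 CPM on the soft and from 1.43 and 1.38 CPM to 4.47 and 5.24 CPM on the stiff matrix. SKP2, the ubiquitin ligase subunit that targets p27, rose as well (0.94 and 1.29), as did the checkpoint kinase gene CHEK1 (0.65 and 0.74).

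Of 10 genes of CDK inhibitors and retinoblastoma family proteins, CDKN1B, which encodes p27, rose on both matrices (0.67 and 0.61, edgeR adjusted p = 0.00917 and 0.0129), and CDKN1A, which encodes p21, fell on the stiff matrix (-0.42, adjusted p = 0.0431). Among 20 mitotic genes, 3 rose and 2 fell with soft gel and 4 and 1 did with stiff gel (15% and 10%, and 20% and 5%, against the shares of all tested genes given above), with CDK1 at 0.94 and 1.09. Of 5 immediate-early and growth signalling genes, 0 rose and 2 fell with soft gel, and 2 rose and 2 fell with stiff gel. FOS, which encodes an AP-1 subunit, rose on the stiff matrix (2.23 ± 0.18, edgeR adjusted p = 0.00123), against 0.35 on the soft. It was also the gene of that list called higher on the stiff matrix at day 4 (2.06 ± 0.18, adjusted p = 0.0106). Between the matrices edgeR called 0 genes of the other 4 lists at either day. An unadjusted p under 0.05 was reached at day 4 by 2 genes of the CDK inhibitor list, both lower on the stiff matrix, and by 1 mitotic gene, which was higher.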

How the data were processed

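RNA-seq libraries (2 per condition, 8 in all) were grouped by the labels. The authors trimmed reads with Trim Galore, mapped them to hg19 with STAR 2.7.1a and counted them with HTSeq, as the paper and the submitters' processing notes state. The deposited counts are whole reads per gene, not normalized; the annotation and strand setting were not given in the sources used here. The deposited FPKM were scaled by median-of-ratios size factors, since the gene lengths they imply lie within 0.001 bp of a whole number in all 20029 genes with one. The labels and the paper name different Illumina sequencers.

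Counts were tested in R 4.3.3 with edgeR 4.0.16: filterByExpr (14570 of 25369 genes kept), TMM scaling (factors 0.870 to 1.08), a quasi-likelihood fit of 4 conditions over all libraries, and Benjamini-Hochberg adjustment over all tested genes with a cutoff of 0.05. CPM are TMM-normalized, with a prior count of 2 on the log2 scale, and each standard error is the absolute log2 fold change over the square root of F. With 2 libraries per condition precision was limited. The authors' tool, DESeq2 (1.42.0 here), limma 3.58.1 on log2(FPKM + 1) for genes that reached 1 FPKM in 2 or more libraries, other scalings, filters and cutoffs, and leaving out each library were alternatives. Replicate numbers were not used to pair the libraries in the main fit, as it was not stated whether same-numbered cultures were grown together. Coordinates and GC content came from GENCODE v44lift37 on GRCh37, and promoter sequences from RefSeq.

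The genes and all other lists were chosen with earlier results of these data known. Values in each library are given for the gene of each role group with the highest mean FPKM, those with the largest and smallest mean change over time, and up to 3 called genes per direction and comparison with the largest change; CDK4, CDK2, RRM2, DUT and E2F1, and some values of CCND2, CDC45 and PCNA, were added after their values were seen. From each other list up to 3 genes with the largest mean change over time could be named; DNMT1 and CDKN1A were named after their values were seen.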

Additional observations from a re-analysis of the deposited data

How the results depend on the processing

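Counts are given as higher and lower genes of the 47. Day 4 against day 2 gave 9 and 4 with soft gel and 18 and 3 with stiff gel. A cutoff of at least 2-fold left 2 and 3 (soft) and 3 and 1 (stiff). The share of all tested genes at this cutoff is not given here, so these counts cannot be set against it. Fitting only the 4 libraries of a comparison gave 19 and 8 for soft gel (24.7% and 25.9% of all genes in that fit) and 0 and 0 for stiff gel (0% in each direction). For stiff against soft at day 2 it gave 1 and 1, CCND1 and DUT (2.2% and 2.47%). DESeq2 called 1 gene higher on the stiff matrix at day 2, at day 4 and in the mean of both days (0.0411%, 0.317% and 0.5% of all genes it tested). The offsets for length and GC content called 1 higher in that mean (0.889%). Every other alternative kept these counts within 1.5 times, except the replicate block. With the replicate number as a block the stiff matrix gave 10 and 3 (8.38% and 9.07% of all genes in that fit) and the soft 6 and 3 (8.93% and 9.09%). In the comparisons of the matrices the block left 0 called (0% at day 2, and 0.0206% higher and 0.0755% lower at day 4). With the block CDC45, POLE2, RFC3 and RPA3 lost their call on the soft and GINS3, POLE2, PCNA, RFC3, RPA1, FEN1, DUT and CDK2 on the stiff matrix. Same-numbered libraries did not deviate together (correlations -0.49 to 0.08), and a crossed pairing at day 4 called 0 and 0 between the matrices. These correlations cannot decide whether such cultures were grown together, since replicate ratios at day 4 also followed gene length. Across genes of at least 10 CPM, rho was 0.69 on the soft and -0.72 on the stiff matrix.

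Without a library, the other of its condition was assumed to vary like the remaining groups. The counts then ran from 0 to 19 higher and 1 to 9 lower over time on the soft matrix, 0 to 27 and 1 to 6 on the stiff, 0 to 1 higher on the stiff matrix at day 2, 0 to 12 higher and 0 to 2 lower at day 4, 0 to 12 and 0 to 1 for the interaction, and 0 to 3 and 0 to 1 for the mean of both days.

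Some of the named genes changed sign, mostly from values near 0, but CCNE2 from 0.60 on each matrix. On the soft matrix the offsets gave MCM7 0.23, GINS4 -0.0029, RFC5 -0.15, TK1 0.52, CCNE2 -0.086 and UHRF1 0.18. Those on stiff gel were POLD3 -0.046, RFC5 -0.0017, CCND1 0.088, CCNE2 -0.010 and UHRF1 0.21. GINS4 was -0.036 on the soft matrix with no scaling factors. CCND1 over time on the soft matrix was -0.016 in DESeq2 and with the limma fits, -0.015 with RLE factors, -0.074 with no scaling factors, -0.014 with no filter, -0.013 in its 4 libraries alone, and -0.024 with at least 10 counts in every library. Leaving out libraries gave ranges of -0.043 to 0.034 for CCND1, -0.15 to 0.18 for GINS4, -0.11 to 0.067 for POLD3, -0.15 to 0.12 for TK1 and -0.19 to 0.0024 for UHRF1 with soft gel. With stiff gel they were -0.15 to 0.40 for GINS4, -0.061 to 0.32 for MCM7 and -0.044 to 0.28 for POLD3. The cause of these changes was not tested.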
